A study of Homo sapiens with 4 samples.

Results

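MicroRNA host genes are long non-coding RNA (lncRNA) genes whose primary transcript holds the hairpin of 1 or more microRNAs. Here they are the entries of the lncRNA table whose gene symbol starts with MIR and ends in HG. The rule found 27 symbols with 308 transcripts among the 54708 lncRNA transcripts of the table. Of these transcripts, 86 from 26 symbols matched a known transcript, among 11334 such annotated transcripts in all, and 222 were assembled from the reads and match no known transcript. MIR646HG had unannotated transcripts only.

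The study sequenced total RNA depleted of ribosomal RNA from 2 human non-small-cell lung cancer cell lines and their drug-resistant derivatives, with 1 library per condition and 4 libraries in all. A549 and HCC827 were the untreated parental lines, and HCC827 is a line known for an activating EGFR mutation. A549/R and HCC827/R were grown from them under rising doses of drug over several months. Per the paper, drug was kept in culture to hold the resistance and was taken away 1 week before the experiment. The labels call both derivatives cisplatin-resistant, while the paper calls the first A549/DDP for cisplatin and the second HCC827/GR for gefitinib, an EGFR inhibitor. The drug of HCC827/R is thus not settled by the sources, and no untreated line of the same age in culture was sequenced beside the derivatives. Without replicates the error between cultures cannot be estimated. No test of a difference was run, and each comparison below sets 1 library beside another.

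A microRNA begins as part of a long primary transcript made by RNA polymerase II. Drosha cuts the hairpin out of it in the nucleus, and Dicer and an Argonaute protein turn the hairpin into the mature strand of about the length printed below, which finds its target mRNAs mainly through the seed at bases 2 to 8. What remains of the primary transcript can be spliced into a lncRNA with a level of its own, so a host lncRNA level is no measure of the mature microRNA. Mature microRNAs were not measured in the files used here.

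Of the 27 symbols, 26 hold at least 1 mature microRNA in the RefSeq table of GRCh38.p14, 90 mature microRNAs from 53 microRNA genes with 76 distinct seeds. The gene that names the host (MIR222 for MIR222HG) was found for the same 26, on the host's strand in 25 and on the other strand in MIRLET7DHG, which RefSeq names LINC02603. The seeds group the hosts. The largest group shares the let-7 seed, which silences growth-promoting mRNAs in differentiated cells, and 6 hosts carry it. The sequences are printed 5′ to 3′ from RefSeq with the seed in capitals, to show that 6 different microRNAs from these hosts share 1 seed.

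hsa-let-7a-5p (MIR100HG and MIRLET7BHG): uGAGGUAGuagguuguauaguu
hsa-let-7b-5p (MIRLET7BHG): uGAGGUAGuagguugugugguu
hsa-let-7c-5p (MIR99AHG): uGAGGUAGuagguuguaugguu
hsa-let-7d-5p (opposite strand to MIRLET7DHG): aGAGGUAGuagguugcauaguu
hsa-miR-4458 (MIR4458HG): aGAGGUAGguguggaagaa
hsa-miR-4500 (MIR4500HG): uGAGGUAGuaguuucuu

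MIR100HG and MIR99AHG, on chromosomes 11 and 21, hold paralogous clusters and share another 2 seeds beside let-7. MIR181A1HG and MIR181A2HG, on chromosomes 1 and 9, hold copies of the miR-181 pair, known for its role in lymphocyte development. The sequences below show these shared seeds.

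hsa-miR-100-5p (MIR100HG): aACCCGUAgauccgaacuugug
hsa-miR-99a-5p (MIR99AHG): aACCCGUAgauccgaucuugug
hsa-miR-125b-5p (MIR100HG and MIR99AHG): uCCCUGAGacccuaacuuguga
hsa-miR-181a-5p (MIR181A1HG and MIR181A2HG): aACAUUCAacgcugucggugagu
hsa-miR-181b-5p (MIR181A1HG and MIR181A2HG): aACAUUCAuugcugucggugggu

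The microRNAs below belong to other hosts described in the results. The guide strands of miR-221 and miR-222, which repress the cell cycle inhibitor p27, share 1 seed. The miR-222-5p strand is printed because the study placed it in its proposed network, and the hairpin of MIR222 shows both of its arms in capitals.

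hsa-miR-221-3p (MIR222HG): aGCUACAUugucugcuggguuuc
hsa-miR-222-3p (MIR222HG): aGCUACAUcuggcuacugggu
hsa-miR-222-5p (MIR222HG): cUCAGUAGccaguguagauccu
hsa-miR-22-3p (MIR22HG): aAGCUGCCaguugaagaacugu
hsa-miR-31-5p (MIR31HG): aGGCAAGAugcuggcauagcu
hsa-miR-205-5p (MIR205HG): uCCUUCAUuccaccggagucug
hsa-miR-17-5p (MIR17HG): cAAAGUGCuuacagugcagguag
MIR222 hairpin: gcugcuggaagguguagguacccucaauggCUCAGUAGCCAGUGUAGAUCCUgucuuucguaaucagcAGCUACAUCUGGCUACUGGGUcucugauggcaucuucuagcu

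Levels are given as FPKM, fragments per kilobase of transcript scaled to the mapped fragments of the library, as estimated by the authors, and the level of a gene is the sum over its annotated transcripts. The libraries held 4.34 to 5.24 gigabases of aligned sequence. HCC827/R stood apart, with 16.3% of all annotated lncRNA transcripts above 0 FPKM against 49.6% in HCC827, 60% in A549/R and 74.5% in A549. The annotated transcripts of the host genes followed this order, with 62 of 86 above 0 in A549, 52 in A549/R, 48 in HCC827 and 12 in HCC827/R. A listed 0 can be a failed estimate, since RMRP, an RNA that every cell uses, was itself at 0 in A549, A549/R and HCC827 and at 2375 FPKM in HCC827/R. RMRP gives no such example for HCC827/R, and whether zeros there are failed estimates was not tested. A host at 0 is therefore called "listed at 0" below and is not read as unexpressed. Such hosts still enter the calls, medians and plots, where their fold depends on the FPKM added to both sides. Lung epithelial, mesenchymal and blood cell lncRNA markers stood at sums of 0 to 0.309 FPKM for 2 of 3 epithelial markers, 0.243 to 4.12 for 4 of 5 mesenchymal markers and 0.312 to 1.5 for 2 of 4 blood markers found in the table. The mesenchymal list counts MIR143HG also as CARMN, its RefSeq name, which was not found. MIR143HG and the blood marker MIR155HG are themselves host genes. The mesenchymal marker FENDRR made up the sum of 4.12 FPKM in HCC827, and was at 0 in both A549 libraries and at 0.637 in HCC827/R. FENDRR was called higher in HCC827 than in A549 and lower in HCC827/R than in HCC827. MIR100HG, MIR99AHG, MIR4458HG and MIR205HG had the same calls, though for them HCC827/R was not above A549. MEG3, on the same list, went the other way between the parental lines, from 1.31 FPKM in A549 to 0 in HCC827. The part of other cell states in these host levels was not tested. In bulk RNA, fewer cells with a transcript and less of it per cell cannot be told apart.

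The host genes stood at low FPKM, but reached 1 FPKM more often than annotated lncRNA genes as a whole. In the A549 pair 14 of the 26 with an annotated transcript reached it in either library, beside 1919 of all 7988 genes. In the HCC827 pair 15 did, beside 2675. Over the 4 libraries, 17 of the 26 reached 1 FPKM in at least 1 library and 9 stayed below it everywhere, at 0.850 FPKM or less. The 9 were MIR137HG, MIR143HG, MIR155HG, MIR2052HG, MIR217HG, MIR381HG, MIR4500HG, MIR4697HG and MIR600HG. They include MIR155HG, the host of a microRNA of activated lymphocytes, MIR143HG, a smooth muscle lncRNA that RefSeq names CARMN, and MIR137HG, the host of a neuronal microRNA. The position of MIR4697HG lies within the protein-coding gene IGSF9B in RefSeq, so its reads could not be told apart from those of IGSF9B. Only 5 hosts, MIR17HG, MIR222HG, MIR22HG, MIR4435-2HG and MIRLET7DHG, stood at 1 FPKM or more in all 4 libraries. All host genes together summed to 43.2 FPKM in A549, 45.2 in A549/R, 63.9 in HCC827 and 48.1 in HCC827/R, on 688, 849, 1726 and 1098 read pairs, estimated from the deposited coverage and the length of each transcript. Their share of the FPKM of all annotated lncRNA transcripts lay between 0.255% and 0.391%.

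**Figure D1:**
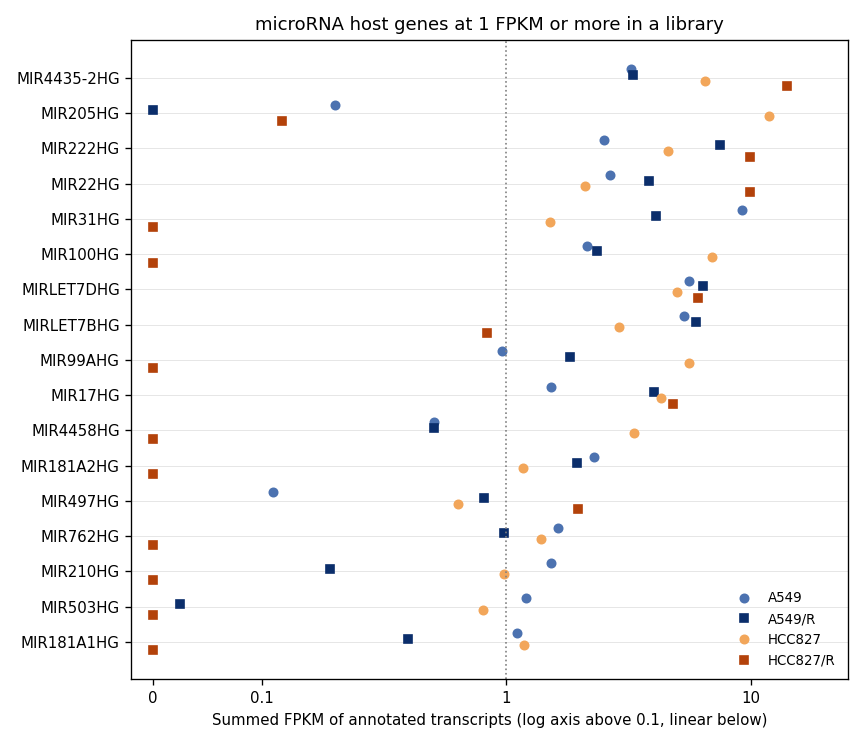
Summed FPKM of the annotated transcripts of each of the 17 host genes at 1 FPKM or more in a library (log axis above 0.1 FPKM, linear below), with 1 point per library and the dotted line at 1 FPKM. HCC827/R has the highest value for MIR4435-2HG, MIR222HG, MIR22HG, MIR17HG and MIR497HG, and lies at 0 for 9 of the 17.

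In the plot of levels by library, HCC827/R lies at one end of the row or the other for nearly every gene. It was the highest library for 5 hosts and was listed at 0 for 9, and for MIRLET7BHG it was the lowest above 0. For MIR205HG and MIRLET7DHG it lay between the others. Its values were above those of HCC827 for 6 of the 17 hosts.

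For each pair, a gene that reached 1 FPKM in either library was compared by the ratio of FPKM after adding 1 FPKM to each, and a gene was called higher at a ratio of 2 or more and lower at 0.5 or less. In A549/R against A549, 14 hosts were compared, 1 was called higher and 2 lower. Over all annotated lncRNA genes of this pair 12.6% were called higher and 14.9% lower, so 1 and 2 of 14 are near the background. The median log2 fold was 0.06 for the hosts and -0.09 for all 1919 genes compared. In HCC827/R against HCC827, 15 hosts were compared, 2 were called higher and 9 lower, beside 24.0% higher and 54.1% lower among all 2675 genes. The 9 of 15 hosts called lower, 60%, are thus close to the share of all genes, and the medians were also close, with -1.12 for the hosts, the value of a host listed at 0, and -1.07 for all genes. Leaving out genes listed at 0 in either library leaves 8 hosts in this pair, with 2 higher and 2 lower, and 34.1% higher and 14.9% lower among 1151 genes. Over the annotated lncRNA genes that reached 1 FPKM in each of its libraries, the median of HCC827/R to HCC827 was 1.34, a shift of 0.42 on the log2 scale, and that of A549/R to A549 was 0.983.

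With these settings no host was called in the same direction in both pairs. Of the 12 hosts compared in both, 0 were higher in both and 0 were lower in both, beside 3.13% higher and 6.86% lower in both among 1342 genes. This count depends on the processing. MIR222HG was higher in both pairs with 0.1 FPKM added, MIR4435-2HG with all transcripts of the symbol, annotated or not, and MIR497HG on read pairs. MIR31HG, at the threshold in the A549 pair, was lower in both with 0.1 FPKM added and after rescaling to the same table sum. MIR181A1HG was also lower in both pairs with 0.1 FPKM added, and MIR210HG on read pairs.

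**Figure D2:**
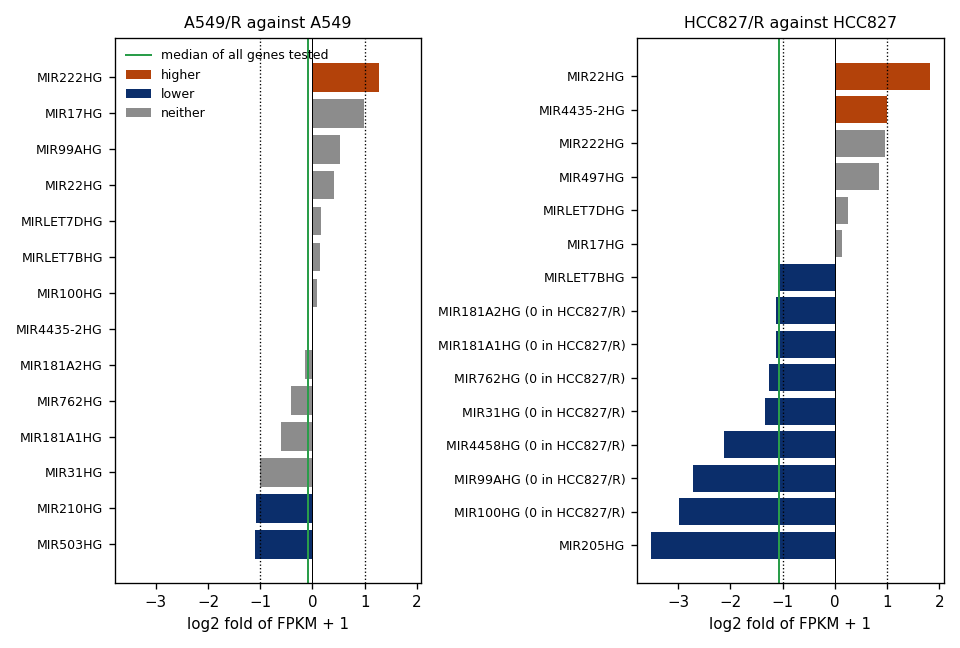
The log2 ratio of FPKM + 1 for each host gene compared for A549/R against A549 (left, 14 genes) and HCC827/R against HCC827 (right, 15 genes), with dotted lines at the 2-fold thresholds and a green line at the median of all annotated lncRNA genes compared. In the HCC827 pair 9 bars pass the lower threshold, 7 of them for hosts listed at 0 in HCC827/R, whose bar length depends on the added 1 FPKM.

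The bars of the A549 pair lie on both sides of 0 and mostly inside the thresholds. For HCC827/R the median of all genes lies beyond the lower threshold, so a bar past it is the common case for a lncRNA gene there.

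MIR222HG, on the X chromosome, is the host of miR-221 and miR-222. Its level was 2.51 FPKM in A549, 7.51 in A549/R, 4.61 in HCC827 and 9.95 in HCC827/R, on 57.7, 171, 140 and 202 read pairs. Both derivatives were above their parental line. In the A549 pair it was the only host called higher, at a fold of 2.42 with the added 1 FPKM. The ratio of read pairs, each scaled to the aligned bases of its library, was 2.79 with a 95% exact interval of 2.04 to 3.8, which like all intervals here covers counting error only and takes the estimated read pairs, rounded, as counts. In the HCC827 pair the fold was 1.95, just outside the threshold, and the read-pair ratio was 1.70 (95% interval 1.36 to 2.13). The log2 fold of 0.97 became 0.59 after rescaling to the median ratio and 0.29 after rescaling to the same table sum, and 1.10 with 0.1 FPKM added, where it was called higher.

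The 2 annotated transcripts of MIR222HG differ in whether they reach the microRNA. ENST00000602461 (1379 bases, chrX:45745211-45770274, minus strand, in the coordinates of the table) spans the hairpin of MIR222 printed above, and ENST00000602507 (1758 bases, chrX:45768380-45770269) ends before it. The spanning transcript stood at 1.06 FPKM in A549, 5.33 in A549/R, 0 in HCC827 and 9.95 in HCC827/R. The shorter-reaching transcript stood at 1.45, 2.18, 4.61 and 0 FPKM in the same order. Of the gene's read pairs, the shorter-reaching transcript took 63.5% in A549 and all in HCC827, and the spanning one took 65.7% in A549/R and all in HCC827/R. Thus each derivative had more of its MIR222HG level on the transcript that reaches the microRNA than its parental line had. Both transcripts begin within a few bases of each other and overlap, and how the estimate divided reads between them was not tested.

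MIR22HG, on chromosome 17, is the host of miR-22, a microRNA often low in tumours. It stood at 2.66 FPKM in A549, 3.84 in A549/R, 2.10 in HCC827 and 9.95 in HCC827/R, on 67.5, 84.1, 93.0 and 384 read pairs. HCC827/R was above the other 3 libraries. The fold in the HCC827 pair was 3.53 and the read-pair ratio was 4.87 (95% interval 3.87 to 6.17). In the A549 pair the fold was 1.32 and was not called. All 7 annotated transcripts span MIR22. In HCC827/R the whole level came from ENST00000574306 (2626 bases, chr17:1711511-1716251), which took 96.9% of the gene's read pairs in HCC827 and 52.4% in A549, whereas ENST00000334146 took 63.8% in A549/R. Part of MIR22HG overlaps the position of WDR81 in RefSeq.

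MIR4435-2HG, on chromosome 2, holds miR-4435 and is the human counterpart of mouse Morrbid, a lncRNA of myeloid cell survival. Its level was 3.25 FPKM in A549, 3.30 in A549/R, 6.50 in HCC827 and 14.1 in HCC827/R. The A549 libraries differed little in annotated transcripts, and in the HCC827 pair the fold was 2.01, just inside the threshold, with a read-pair ratio of 1.94 (95% interval 1.49 to 2.56). The call was lost after rescaling to the median ratio (log2 fold 0.62) or to the same table sum (0.31) and on read pairs (0.84). With all transcripts of the symbol the log2 fold was 2.83 in this pair, and A549/R was called higher than A549, at 18.7 against 4.76 FPKM (log2 fold 1.78). Of the 241 FPKM of all transcripts in HCC827/R, unannotated transcripts antisense to an exon held 91.3, 31.6 and 28.1 FPKM, each at 0 in HCC827. The transcripts behind the annotated level differed between the libraries. In HCC827/R the level came almost wholly from 1 transcript, ENST00000439494 (707 bases, chr2:111469638-111480261), at 14.0 FPKM, or 99.3% of the gene's read pairs. That transcript was at 0.115, 0.0513 and 0 FPKM in A549, A549/R and HCC827, where ENST00000371162, ENST00000439362 and ENST00000604981 took the largest shares of read pairs, at 30.8%, 40.5% and 29.0%. The transcripts that span the microRNA stood at 0.985, 1.61 and 0.676 FPKM in the first 3 libraries and at 0 in HCC827/R. The gene has a near copy, LINC00152 (CYTOR), at 4.67, 6.44, 15.7 and 41.8 FPKM, and reads may have been divided between them, so the level of MIR4435-2HG is uncertain.

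MIR17HG, on chromosome 13, makes the primary transcript of the miR-17-92 cluster, a target of MYC that promotes proliferation. It stood at 1.53 FPKM in A549, 4.02 in A549/R, 4.30 in HCC827 and 4.79 in HCC827/R, so A549 was below the other 3 libraries. The fold in the A549 pair was 1.99, just outside the threshold, with a read-pair ratio of 3.24 (95% interval 1.98 to 5.71). On read pairs, or after rescaling to the median ratio, MIR17HG was called higher, at log2 folds of 1.21 and 1.01. The HCC827 pair differed little, with a fold of 1.09. All 3 annotated transcripts span MIR17, and ENST00000400282 took 71.1% to all of the read pairs in each library.

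MIR497HG, on chromosome 17, holds miR-195 and miR-497, which share a seed and repress cyclins. It was low in A549, at 0.111 FPKM, and stood at 0.813 in A549/R, 0.637 in HCC827 and 1.96 in HCC827/R. Each derivative was above its parental line, but the gene was below 1 FPKM in both A549 libraries and its fold in the HCC827 pair was 1.81, short of the threshold. On read pairs MIR497HG was called higher in both pairs, and in the HCC827 pair also with 0.1 FPKM added, at log2 folds of 1.31 and 1.49. The read-pair ratios were 7.69 (95% interval 3.21 to 21.5) and 3.08 (95% interval 2.17 to 4.55). Nearly the whole level was on ENST00000572453, a transcript of 3838 bases that covers the gene end to end at chr17:7015822-7019659. MIRLET7DHG, whose RNA runs antisense to let-7d, varied little, at 5.60, 6.39, 4.98 and 6.12 FPKM on 104 to 127 read pairs, all from ENST00000416309.

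The hosts of the let-7 seed printed above differed between the lines. MIR100HG stood at 2.14 FPKM in A549, 2.35 in A549/R and 6.96 in HCC827, and was listed at 0 in HCC827/R. MIR99AHG followed the same order, at 0.959, 1.82, 5.59 and 0 FPKM. The leading transcripts changed between libraries, with ENST00000532350, ENST00000534782 and ENST00000526674 taking 41.7%, 33.8% and 88.1% of the read pairs of MIR100HG in A549, A549/R and HCC827, and ENST00000602323, ENST00000445461 and ENST00000419952 taking 32.6%, 58.9% and 62.1% of those of MIR99AHG. MIR4458HG, which holds a let-7-seed microRNA of its own, was at 0.505, 0.506, 3.33 and 0 FPKM, with ENST00000606459 taking 90.2% or more of its read pairs. For these 3 hosts HCC827 was the highest library and HCC827/R the lowest, and HCC827 was called higher than A549, a call that all 3 lost after rescaling to the same table sum. MIR4500HG was at 0.779, 0.540, 0.850 and 0 FPKM. The 5 hosts that carry the let-7 seed on their own strand summed to 9.70 FPKM in A549, 11.2 in A549/R, 19.6 in HCC827 and 0.831 in HCC827/R. This sum counts all annotated transcripts of each host, whether or not they span its let-7-seed microRNA. For MIR100HG and MIR99AHG, spans of MIR100 and MIR99A were read, and spans of their let-7 were not. In HCC827, transcripts that do not span the microRNA naming the host held 6.96 FPKM of MIR100HG, 3.38 of MIR99AHG, 2.89 of MIRLET7BHG and 0.576 of MIR4458HG. Those that span it held 0, 2.21, 0.00183 and 2.76 FPKM, and all 0.850 FPKM of MIR4500HG. The 0.831 FPKM in HCC827/R was all on a spanning transcript of MIRLET7BHG. The low sum in HCC827/R must be read beside the 58.7% of all lncRNA genes at 1 FPKM or more in HCC827 that were listed at 0 in HCC827/R. Among the hosts 7 of 14 were.

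MIRLET7BHG, on chromosome 22, holds let-7a-3 and let-7b and was the only host with the let-7 seed on its own strand above 0 in HCC827/R. It stood at 5.32 FPKM in A549, 5.96 in A549/R, 2.89 in HCC827 and 0.831 in HCC827/R, a fold of 0.470 in the HCC827 pair, called lower. Its read pairs, however, hardly differed, with 65.3 in HCC827 and 55.8 in HCC827/R, a scaled ratio of 1.01 (95% interval 0.697 to 1.47). The length of the transcripts that received the reads differed between the libraries. In HCC827/R all read pairs were on ENST00000360737 (4560 bases, chr22:46086003-46113928), the only annotated transcript that spans MIRLET7B, at 0.831 FPKM. That transcript was at 0.251 FPKM in A549, 0.707 in A549/R and 0.00183 in HCC827, where shorter transcripts that do not span the microRNA held 5.07, 5.25 and 2.89 FPKM. Among these, ENST00000381051 led in A549 with 43.5% of the read pairs and ENST00000435439 in HCC827 with 53.0%, while the spanning transcript led in A549/R with 39.0%. An unannotated transcript of 6275 bases within an intron of the gene had 349, 347 and 330 read pairs in A549, A549/R and HCC827 and 36.1 in HCC827/R, so with all transcripts of the symbol HCC827/R was again the lowest library.

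**Figure D3:**
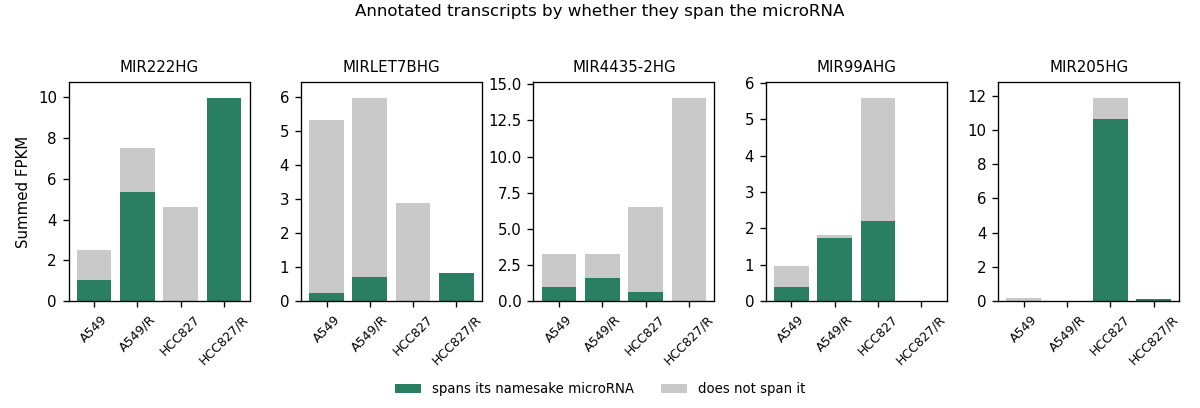
Summed FPKM of the annotated transcripts that span the microRNA that names the host (green) and of those that do not (grey) in each library, for 5 hosts, each panel with its own FPKM axis from 0. In MIR222HG and MIRLET7BHG the HCC827/R bar is all green and the HCC827 bar all or nearly all grey, and in MIR4435-2HG the HCC827/R bar is all grey.

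The plot of spanning transcripts shows 5 hosts that have both kinds of transcript. In all, 22 hosts had an annotated transcript that spans the position of the namesake microRNA. In MIRLET7DHG, counted among them, the microRNA lies on the opposite strand, so the transcript does not hold it. MIR100HG, MIR143HG, MIR181A1HG and MIR646HG had none, so for MIR100HG the annotated level is not that of a transcript holding MIR100. In MIR99AHG the spanning transcripts stood at 0.389, 1.75, 2.21 and 0 FPKM. The spans were read from the start and end of each transcript, and all 27 symbols overlapped their RefSeq gene on GRCh38.p14, 17 with an identical start or end, though the sources do not name the genome build of the table. This reading was chosen after the values had been seen.

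MIR205HG, on chromosome 1, is the host of miR-205, an epithelial microRNA that represses the ZEB factors. It was all but limited to 1 library, at 0.199 FPKM in A549, 0 in A549/R, 11.9 in HCC827 and 0.121 in HCC827/R. HCC827 alone was high, on 575 read pairs against 1.49 in A549 and 5.95 in HCC827/R. In HCC827/R against HCC827 the fold was 0.0871 and the read-pair ratio was 0.0122 (95% interval 0.00449 to 0.0269). In HCC827, 95.2% of the read pairs were on ENST00000433108 (3348 bases, chr1:209428820-209432545), which spans MIR205. Unlike the hosts listed at 0, MIR205HG kept read pairs in HCC827/R on this same transcript, so its fall is a ratio of measured values.

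MIR31HG, on chromosome 9, is the host of miR-31 and a lncRNA linked to senescence. It stood at 9.23 FPKM in A549, 4.12 in A549/R, 1.52 in HCC827 and 0 in HCC827/R, more than any other host in A549. A549/R was below A549, and HCC827/R was listed at 0. The fold in the A549 pair was 0.50, just outside the threshold for a call, with a read-pair ratio of 0.446 (95% interval 0.308 to 0.637). It was called lower, at a log2 fold of -1.15, with 0.1 FPKM added. All reads were on the single annotated transcript ENST00000304425 (745 bases, chr9:21455642-21559669), which spans MIR31 and in part overlaps IFNE.

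MIR31HG also gave the only circular RNA of a host gene, 1 of the 3840 circRNAs counted by the authors. This circRNA of 2 exons (chr9:21476899-21477292) had 74 counts in A549, 20 in A549/R, 11 in HCC827 and 0 in HCC827/R. Scaled to 1000000 circRNA counts in the library these were 42.0, 10.2, 5.24 and 0, the same order of libraries as the linear transcript. The ratio in the A549 pair was 0.243 (95% exact interval 0.140 to 0.402). With a floor of 3 counts in place of the 0, HCC827/R was 2.77-fold lower than HCC827. That value takes the 11 counts of HCC827 as exact and is no bound on the difference. In HCC827 against A549 the ratio was 0.125 (95% interval 0.0597 to 0.236). The circular counts come from the same RNA as the FPKM and are no replicate. Whether they rest on other reads than the FPKM is not stated in the sources.

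The lower calls in A549/R were MIR210HG and MIR503HG. MIR210HG, on chromosome 11, holds miR-210, a target of HIF-1, and stood at 1.52 FPKM in A549, 0.190 in A549/R, 0.982 in HCC827 and 0 in HCC827/R. A549/R was below A549, and HCC827/R was listed at 0. The fold in the A549 pair was 0.472 and the read-pair ratio was 0.210 (95% interval 0.0729 to 0.538), on 25.6 and 5.72 read pairs. ENST00000500447, which spans MIR210, took 62.8% of the read pairs in A549 and all in A549/R and HCC827. MIR503HG, on the X chromosome, holds miR-503, a microRNA of the cell cycle, and stood at 1.21, 0.025, 0.804 and 0 FPKM, with a fold of 0.464 in the A549 pair. Its annotated transcripts held 12.4 read pairs in A549, led by ENST00000414769 with 78.5%, and under 1 in A549/R, on ENST00000441492, which also led in HCC827 with 81.5%. Most reads under this symbol lay on 1 unannotated transcript with a single exon. That transcript stood at 0.699 FPKM in A549, 1.92 in A549/R, 0.651 in HCC827 and 1.19 in HCC827/R. It was not intronic, so it was classed as antisense to an exon or as intergenic. Whether it is RNA of this gene was not tested. With this transcript added, the symbol summed to 1.91 and 1.95 FPKM in A549 and A549/R, and the lower call was lost.

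The remaining hosts were low. MIR181A1HG stood at 1.11 FPKM in A549, 0.397 in A549/R, 1.19 in HCC827 and 0 in HCC827/R, with ENST00000436880 taking 72.9% or more of its read pairs. MIR181A2HG, which holds the other copy of the pair, stood at 2.28, 1.95, 1.18 and 0 FPKM on its single annotated transcript, ENST00000429139, and in part shares its position with NR6A1. Neither was called in the A549 pair, though MIR181A1HG was called lower there with 0.1 FPKM added, at a log2 fold of -1.28. MIR762HG, which shares its position with BCL7C, stood at 1.63, 0.982, 1.39 and 0 FPKM, with ENST00000570025 taking 82.9% or more of its read pairs. All 3 were called lower in HCC827/R, where each was listed at 0, but with all transcripts of its symbol MIR181A1HG was called higher there, at a log2 fold of 1.55.

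Between the parental lines, 16 hosts were compared, 5 were higher in HCC827 and 1 was lower, beside 35.6% higher and 15.1% lower among all 2665 genes. The higher ones were MIR205HG, MIR99AHG, MIR4458HG, MIR100HG and MIR17HG, with folds of 10.7, 3.36, 2.88, 2.53 and 2.10. MIR31HG was the lower one, with a fold of 0.246 and a read-pair ratio of 0.164 (95% interval 0.0980 to 0.273). The median log2 fold was -0.04 for the hosts and 0.59 for all genes. This split depends on the scaling, since the summed FPKM of the whole table was 2.54 times as high in HCC827, a shift of 1.35 on the log2 scale. After scaling to the same sum, 1 host was higher and 8 were lower, with 15.6% higher and 43.1% lower among all genes. MIR205HG and MIR31HG were called under both scalings.

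Single transcripts gave the same picture at a finer scale. At 0.1 FPKM or more in a library of the pair and with 0.1 FPKM added, 61 host transcripts were compared in the A549 pair, of which 17 were higher and 22 lower, beside 24.4% and 38.4% of all 8007 annotated transcripts. For HCC827/R, 5 of 47 were higher and 39 lower, beside 18.0% and 73.0% of 5578. The 5 higher ones were ENST00000360737 of MIRLET7BHG, ENST00000439494 of MIR4435-2HG, ENST00000572453 of MIR497HG, ENST00000574306 of MIR22HG and ENST00000602461 of MIR222HG. All but ENST00000439494 span their namesake microRNA. Of the host transcripts above 0 in HCC827, 39 of 48 (81.3%) were listed at 0 in HCC827/R, beside 75.9% of all annotated transcripts, and in the A549 pair 24 of 62 (38.7%) were, beside 39.1%. These shares describe the libraries and are not particular to the hosts.

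The 222 unannotated transcripts under host symbols came from 14 hosts, and 221 had a single exon. They comprised 184 within introns, 21 antisense to an exon and 17 classed as intergenic. Their sum was 95.02 FPKM in A549, 99.7 in A549/R, 639 in HCC827 and 386 in HCC827/R, above the sum of the annotated transcripts in every library. All unannotated transcripts of the table summed to 25590, 30174, 88884 and 158903 FPKM, so they too were higher in HCC827 than in A549, but they differed the other way in the HCC827 pair. The hosts made up 0.371%, 0.330%, 0.719% and 0.243% of these sums. The reads behind them differed between the libraries, with a median of 6.50 read pairs per transcript above 0 in A549, 7.83 in A549/R, 23.0 in HCC827 and 82.3 in HCC827/R. The median over all unannotated transcripts differed in the same way, at 6.00, 7.18, 18.0 and 128.

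The sums of these transcripts differed between the lines. Under MIR100HG, 76 unannotated transcripts summed to 29.3 FPKM in A549, 24.1 in A549/R, 287 in HCC827 and 61.6 in HCC827/R. Under MIR99AHG, 49 summed to 2.78, 6.22, 234 and 26.7 FPKM. In both hosts of the miR-100 and miR-99a seed HCC827 was the highest library, as it was for their annotated transcripts, and HCC827/R, listed at 0 for those, was above both A549 libraries here. MIR181A1HG went the other way, with 31.0, 34.5, 3.38 and 15.3 FPKM over 32 transcripts. Under MIR4435-2HG, 18 summed to 1.51, 15.4, 26.6 and 227 FPKM, with 91.3 FPKM in HCC827/R from 1 antisense transcript of 218 bases that had no reads in the other libraries. Antisense transcripts of 249 and 208 bases added 31.6 and 28.1 FPKM there, also with no reads elsewhere. MIR137HG, below 1 FPKM in its annotated transcripts, had 24.3, 2.19, 0 and 48.8 FPKM over 18.

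**Figure D4:**
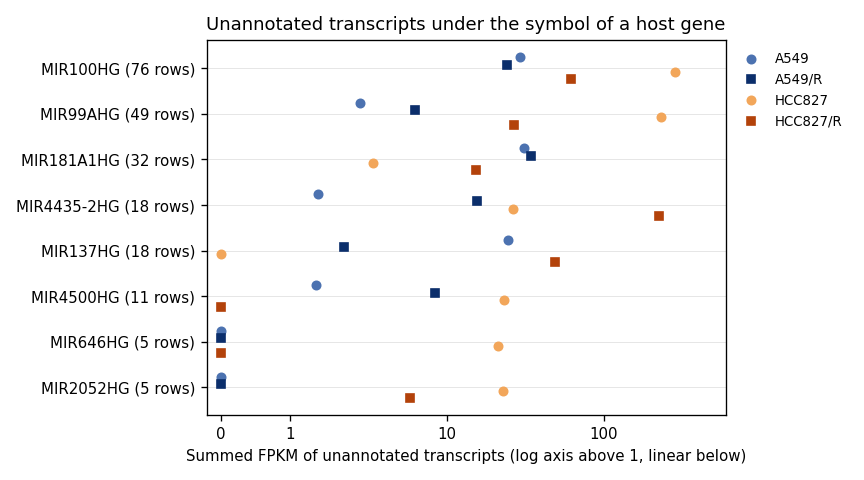
Summed FPKM of the unannotated transcripts under each host symbol with 5 or more of them (log axis above 1 FPKM, linear below), with 1 point per library. HCC827 is the highest library for MIR100HG and MIR99AHG, at 287 and 234 FPKM, and HCC827/R for MIR4435-2HG and MIR137HG, at 227 and 48.8 FPKM.

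The plot of unannotated transcripts shows that the highest library differed from host to host. Most lie in introns, and their origin was not tested.

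A list of 10 other lncRNAs known to hold microRNAs, whose symbols do not end in HG, was read beside the hosts, and 6 were in the table. In the A549 pair 1 of 4 compared was higher and 0 lower, beside 12.6% and 14.9% of all genes. With HCC827/R, 1 of 5 was higher and 2 lower, beside 24.0% and 54.1%. The higher one in both pairs was DLEU2, the host of miR-15a and miR-16-1, at 1.93 FPKM in A549, 8.69 in A549/R, 0.540 in HCC827 and 5.33 in HCC827/R. H19, the host of miR-675, held most of the level of this list, at 3.64, 2.56, 185 and 50.5 FPKM. It was lower in HCC827/R and the only one of the list called higher in HCC827 than in A549. PVT1, the other lower one, stood at 10.0, 14.9, 9.11 and 0 FPKM and FTX at 10.9, 5.48, 8.18 and 4.85 FPKM.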

How the data were processed

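Per the paper's methods, reads were trimmed (Cutadapt) and aligned (Bowtie 2, TopHat2) by the authors, and StringTie assemblies of the single libraries were merged before StringTie and Ballgown gave the level of each transcript. TopHat is also named in the submitters' processing notes. Not given in the sources used here are versions, genome build, strandedness and the circRNA tool. The deposited lncRNA table holds the authors' FPKM and mean coverage of each transcript in each library, and the deposited circRNA table holds the authors' estimated counts. The 4 circRNA FPKM columns were not used.

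Coverage times length, divided by 302 bases (1 pair of reads of 151 bases, the commonest base number of single-exon transcripts in 2 libraries), gave the read pairs. Of single-exon transcripts, 15.9% to 31.9% lay within 1 base of a multiple of 302. Host gene levels are sums of FPKM over annotated transcripts, compared with 1 FPKM added at a minimum of 1 FPKM, and transcripts with 0.1 FPKM added at a minimum of 0.1 FPKM. Calls are at 2 or more and 0.5 or less. Intervals are Clopper-Pearson at 95%. Every host at 1 FPKM or more in a library is named with its 4 values, and a transcript where it holds the largest share of the gene's read pairs. Exceptions to this rule were named after their values were seen. The members and lists were chosen with earlier results of these data known. Symbols were matched to RefSeq (GRCh38.p14) for microRNAs and overlapping genes. The calling rule was tested on simulated read pairs with 0.1 added at a minimum of 0.1, not at the settings of the host gene calls. The alternatives were other added values, minimums and thresholds, rescaling to the median ratio or to the same table sum, all transcripts of a symbol and read pairs scaled to the aligned bases. Analyses ran in Python 3.11.15 (matplotlib 3.10.9, scipy 1.17.1, numpy 2.4.6, pandas 2.3.3).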

Additional observations from a re-analysis of the deposited data

Results flagged for a closer look

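Of the host transcripts called in both pairs, 2 were called in opposite directions. ENST00000602620 of MIR99AHG was higher in A549/R than in A549, with a log2 fold of 3.23, and lower in HCC827/R than in HCC827, with a log2 fold of -3.24. Its levels were 0 FPKM in A549, 0.837 in A549/R, 0.844 in HCC827 and 0 in HCC827/R, so both folds are against a listed 0 and depend on the added 0.1 FPKM. ENST00000432818 of MIR4435-2HG had log2 folds of 2.36 and -1.92, from 0.0129, 0.480, 0.277 and 0 FPKM, the second again against a listed 0. The difference between the pairs was not tested, with 1 library per condition.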

How the results depend on the processing

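No paired analysis was possible because each condition had 1 library, and for the same reason no library could be left out. Of 90 alternative counts and medians, 56 were kept, a count within 1.5 times and a median within the 95% order interval of the main one. Of 322 alternative folds of single hosts, 268 were kept, meaning the same call and, where an interval existed, a value within counting error. Folds without an interval, such as those of hosts listed at 0, were judged by the call alone. The log2 fold of MIR100HG in the HCC827 pair thus counted as kept at -6.14, from -2.99. Among hosts called in the main setting, another 3 folds turned direction. These were MIR503HG in the A549 pair (log2 fold 0.02) and MIR181A1HG in the HCC827 pair (1.55) with all transcripts of the symbol, and MIRLET7BHG in the HCC827 pair on read pairs (0.01). Sign changes of hosts not called in the main setting were not counted as turned. An example is MIR222HG between the parental lines, from 0.67 to -0.39 after rescaling to the same table sum. MIR222HG in the A549 pair and MIR22HG and MIR205HG in the HCC827 pair kept their calls under the 8 alternatives other than the 4-fold threshold.

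Counts of hosts are set beside the share of all genes called under the same setting. In the A549 pair, 2 of 14 were higher and 4 lower with 0.1 FPKM added (20.2% and 25.5%), 0 of 4 lower at a minimum of 5 FPKM (14.2%), and 0 higher and 0 lower at 4-fold (2.45% and 1.56%). Higher hosts numbered 2 of 14 after rescaling to the median ratio (12.8%), 3 of 17 to the table sum (14.8%), 3 of 16 with all transcripts (18.4%) and 3 of 14 on read pairs (11.6%), where 1 was lower (15.2%). In the HCC827 pair, 4 of 15 were higher with 0.1 FPKM added (27.2%), with a median log2 fold of -3.67, 4 of 21 with all transcripts (23.4%), 1 of 15 after rescaling to the median ratio (20.1%) or the table sum (17.5%) and 0 at 4-fold (12.3%). Lower hosts numbered 3 of 7 at a minimum of 5 FPKM (26.3%), 4 of 15 at 4-fold (13.4%) and 2 of 8 above 0 in both libraries (14.9%), an alternative chosen after seeing the data. Between the parental lines, 3 of 7 were higher in HCC827 at a minimum of 5 FPKM (35.5%), 1 of 16 at 4-fold (6.08%), 1 of 17 higher and 8 lower after rescaling to the table sum (15.6% and 43.1%), and 10 of 21 higher and 3 lower with all transcripts (43.7% and 15.8%). Of 61 host transcripts in the A549 pair, 1 was higher and 0 lower with 1 FPKM added (4.18% and 4.65%) and 10 and 7 at 4-fold (10.8% and 15.0%), and of 11 at a minimum of 1 FPKM 2 and 2 (24.0% and 27.6%). For HCC827/R, 3 of 47 were higher and 16 lower with 1 FPKM added (14.6% and 31.9%), and 16 of 22 lower at a minimum of 1 FPKM (57.4%). The cause of these shifts was not tested.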
